A study of Mus musculus with 9 samples.

Results

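The 10 genes described here carry the transcriptional output and the brakes of canonical WNT signalling, and were followed through tumours of a mouse WNT-medulloblastoma model and normal cerebellum. They were picked by gene symbol from the table of 24444 symbols, all 10 were found, and all 10 passed the filter on low counts. They comprise 6 feedback regulators (Axin2, Nkd1, Nkd2, Rnf43, Znrf3 and Sp5) and the 4 TCF/LEF factors (Lef1, Tcf7, Tcf7l1 and Tcf7l2). RNA-seq counts came from 9 libraries, 3 in each of 3 groups.

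The MycT58A group is orthotopic tumour in CD1-nude hosts, mice that lack a thymus, grown from implanted cells with Blbp-Cre, floxed alleles of Ctnnb1 (Ctnnb1Ex3flx/flx) and Trp53 (Trp53flx/flx), the Pik3caE545K +/flx allele and, in addition, MycT58A, a Myc protein whose T58A change slows its degradation. The EV group is tumour from cells of the same background with EV, read here as an empty vector. The control group is normal cerebellum, taken from CD1-nude mice, with none of these alleles or vectors named. Both tumour groups therefore share the Ctnnb1 allele, whose loss of exon 3 stabilises beta-catenin, together with the Trp53 and Pik3ca alleles. Cre is driven by the promoter of Blbp, a gene of neural progenitors and radial glia, so Cre acts in cells that express it. GFP-positive tumour regions were dissected from the host brain, so host cells can be part of the RNA. The libraries of a group are described as biological replicates. The ages of the mice are not given, nor is it said whether each tumour grew from its own cell preparation. If not, p-values measure a spread that is partly technical.

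In canonical WNT signalling, beta-catenin that escapes destruction enters the nucleus, where it binds TCF/LEF proteins and switches their target genes on. Several of those targets act back on the pathway at the receptor, at Dishevelled or at the destruction complex, so they serve both as a brake and as a readout of its activity. In the hindbrain the pathway shapes the dorsal midline and lower rhombic lip, and activating CTNNB1 mutations define the WNT subgroup of human medulloblastoma.

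Total counts ranged from 16631523 to 30410089 per library. Levels below are CPM (counts scaled to a common library size, with TMM factors). One label calls the controls cerebellum and another speaks of cortex. In the controls the 8 granule neuron markers summed to 4044 to 5555 CPM and the 8 Purkinje cell markers to 10281 to 11657 CPM, while the 6 forebrain cortex markers summed to 3.68 to 6.07 CPM, with Emx1 and Fezf2 at 0. The EV libraries differ widely from each other. Myc stood at 918, 859 and 727 CPM in MycT58A libraries, at 360, 19.9 and 762 CPM in EV libraries and at 0.94, 1.595 and 32.0 CPM in controls, so EV replicate 3 lay within the range of the MycT58A libraries. Counts by gene symbol do not tell MycT58A from the mouse's own Myc.

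Sp5 and Axin2 are widely used as direct targets of beta-catenin. Nkd2 was the 1 gene of the 10 called between the tumour groups, a call kept under 10 of 17 alternative settings. The stretches of DNA just before these 3 genes are shown for that reason. Each is the 250 bases before the RefSeq start of transcription on the gene's own strand (GRCm38.p6), chr2:70474673-70474922 on the plus strand for Sp5, chr11:108920099-108920348 on the plus strand for Axin2 and chr13:73847632-73847881 on the minus strand for Nkd2. Capitals mark CTTTGAT, a common form of the TCF/LEF binding motif.
Sp5: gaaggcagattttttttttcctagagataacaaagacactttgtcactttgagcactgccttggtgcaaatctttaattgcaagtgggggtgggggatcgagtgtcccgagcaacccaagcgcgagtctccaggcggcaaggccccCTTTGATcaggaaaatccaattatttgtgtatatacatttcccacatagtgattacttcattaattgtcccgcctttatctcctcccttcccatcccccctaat
Axin2: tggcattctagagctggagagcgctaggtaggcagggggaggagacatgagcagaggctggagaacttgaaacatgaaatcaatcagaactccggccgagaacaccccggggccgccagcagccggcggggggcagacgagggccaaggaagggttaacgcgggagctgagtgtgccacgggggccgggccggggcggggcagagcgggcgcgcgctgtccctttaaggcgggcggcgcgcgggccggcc
Nkd2: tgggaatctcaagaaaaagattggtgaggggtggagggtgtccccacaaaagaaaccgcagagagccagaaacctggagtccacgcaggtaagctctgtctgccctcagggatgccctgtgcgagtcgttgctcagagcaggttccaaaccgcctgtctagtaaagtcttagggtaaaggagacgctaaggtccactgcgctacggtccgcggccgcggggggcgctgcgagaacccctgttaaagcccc

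Sp5 holds 1 match, on the plus strand with its first base 104 bases before the start, and the Axin2 and Nkd2 stretches hold none. CTTTGAT or its reverse complement occurs in 3.21% of all 32851 stretches of this length in the RefSeq table, and the related CTTTGAA in 4.46%. RefSeq gave 15 such stretches for 9 of the 10 genes, some of 1 gene overlapping each other, and neither motif occurred in any of the other 14. GGGCGG, the core of the GC box bound by SP factors, occurred on either strand in 8 of the 15, before Axin2, Lef1, Tcf7, Tcf7l1 and Tcf7l2, against 32.7% of all stretches. CACGTG, the E-box bound by MYC and MAX, reads the same on both strands and occurred once, before 1 of the 4 Lef1 starts, against 6.02% of all stretches. TCF/LEF sites also lie in introns and distant enhancers, which these windows do not cover.

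Every one of the 10 genes was higher in tumours than in normal cerebellum, in both tumour groups. Of the 10, 10 rose in MycT58A tumours and 10 rose in EV tumours (edgeR, threshold 0.05 on the adjusted p), against 31.2% and 30.7% of all 15171 genes tested. Of all genes 31% fell in MycT58A and 26.3% in EV tumours, so that 62.2% and 57% were called in either direction. For all 10 genes every library of a tumour group stood above every control library, which held for 41% of all genes in MycT58A and 30.3% in EV tumours; the reverse order held for 41.5% and 32.2%. The median log2 fold change over the 10 was 3.80 in MycT58A and 3.76 in EV tumours, beside -0.02 and 0.14 over all genes tested. Both tumour comparisons share the control libraries. Tumour and cerebellum differ in genotype, cell types and growth together, and these cannot be told apart; in bulk tissue neither can more cells of a type and more RNA per cell. The plot of levels by library shows the 10 genes side by side.

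**Figure D1:**
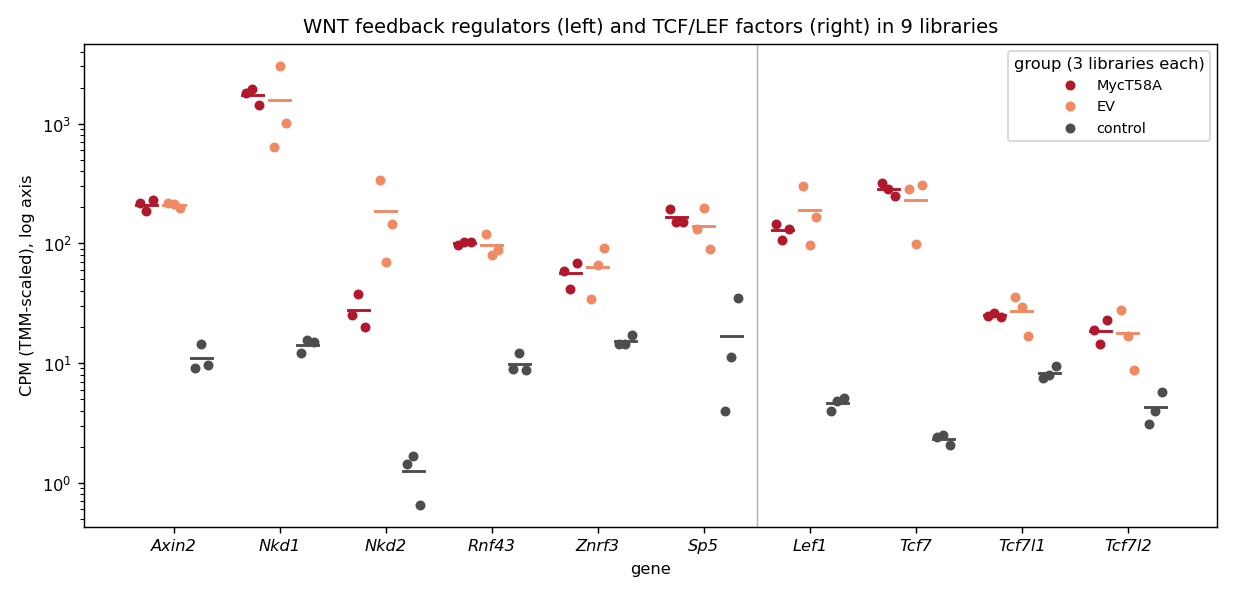
Level of each gene (x axis) in each library, in CPM on a log axis; points are libraries, bars are group means, and colours mark MycT58A, EV and control. Every tumour point of a gene lies above its control points, and Nkd2 is the gene for which MycT58A (19.9 to 38.0 CPM) and EV (69.5 to 340.2 CPM) do not overlap.

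Axin2 (chromosome 11, 108920349 to 108950783, mm10) encodes a scaffold of the complex that destroys beta-catenin and is the general feedback gene of the pathway. It stood at 216, 187 and 229 CPM in MycT58A tumours, at 216, 212 and 198 CPM in EV tumours and at 9.03, 14.5 and 9.71 CPM in controls. The 6 tumours were nearly level with each other, far above the controls. It rose 19.0-fold in MycT58A tumours (log2 fold change 4.25 ± 0.24 SE, edgeR adjusted p = 1.81e-05) and 18.8-fold in EV tumours (4.23 ± 0.24 SE, edgeR adjusted p = 1.5e-05).

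Nkd1 (chromosome 8, 88521354 to 88594884) and Nkd2 (chromosome 13, 73818534 to 73847631) encode the Naked cuticle proteins, which bind Dishevelled and dampen the signal. Nkd1 stood at 1801, 1933 and 1440.1 CPM in MycT58A tumours, at 638, 3032 and 1016 CPM in EV tumours and at 12.1, 15.6 and 14.9 CPM in controls. Per length it was the most abundant of the 10 transcripts in both tumour groups, at 378 ± 55.9 CPM per kb of exon in MycT58A and 343 ± 282 in EV tumours (SD, n = 3), and its range overlapped with no other gene's in either. It rose 121-fold in MycT58A tumours (6.92 ± 0.65 SE on the log2 scale, edgeR adjusted p = 6.9e-05) and 109.9-fold in EV tumours (6.78 ± 0.65 SE, edgeR adjusted p = 8.73e-05). The EV fold was 58.5 without EV replicate 2, where Nkd1 was highest.

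Nkd2 stood at 25.0, 38.0 and 19.9 CPM in MycT58A tumours, at 340.2, 69.5 and 145 CPM in EV tumours and at 1.43, 1.68 and 0.65 CPM in controls, where it was the least abundant of the 10 per kb of exon. Against control it rose 21.9-fold in MycT58A tumours (4.45 ± 0.66 SE, edgeR adjusted p = 0.000544) and 146-fold in EV tumours (7.19 ± 0.74 SE, edgeR adjusted p = 0.000118). The EV fold was 85.0 without EV replicate 1, the highest library. The 3 groups occupied separate ranges, with MycT58A tumours between EV tumours and controls.

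Rnf43 (chromosome 11, 87662722 to 87735539) and Znrf3 (chromosome 11, 5276324 to 5444847) encode membrane ubiquitin ligases that remove Frizzled receptors from the cell surface. Rnf43 stood at 96.1, 103 and 102 CPM in MycT58A tumours, at 120.5, 79.7 and 88.7 CPM in EV tumours and at 8.83, 12.1 and 8.73 CPM in controls. Znrf3 stood at 59.1, 41.5 and 68.6 CPM in MycT58A tumours, at 34.1, 65.9 and 91.2 CPM in EV tumours and at 14.3, 14.5 and 17.1 CPM in controls. Rnf43 rose 10.1-fold in MycT58A and 9.74-fold in EV tumours (edgeR adjusted p = 2.53e-05 and 2.75e-05), and Znrf3 rose 3.68-fold in MycT58A and 4.16-fold in EV tumours (edgeR adjusted p = 0.002 and 0.0016). The 95% intervals of the folds did not overlap in MycT58A tumours, at 7.02 to 14.7 for Rnf43 and 2.09 to 6.48 for Znrf3. In EV tumours they did, at 6.74 to 14.1 for Rnf43 and 2.35 to 7.35 for Znrf3. The difference between the 2 genes was not tested.

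Sp5 (chromosome 2, 70474923 to 70477729) encodes a zinc finger factor of the SP family that WNT switches on and that restrains other targets. It stood at 195, 150.3 and 149.6 CPM in MycT58A tumours, at 133, 198 and 89.4 CPM in EV tumours and at 4.005, 11.3 and 35.2 CPM in controls. It was the gene with the widest range among controls, with replicate 3, also the control library with the most Myc, at the top. Control replicate 3 was also the highest control for Lef1 (5.13 CPM), Znrf3 (17.1 CPM), Tcf7l1 (9.52 CPM) and Tcf7l2 (5.74 CPM). It was the lowest for Nkd2 (0.65 CPM), Rnf43 (8.73 CPM) and Tcf7 (2.05 CPM). For Axin2 (9.71 CPM) and Nkd1 (14.9 CPM) it lay between the other controls. Sp5 rose 9.80-fold in MycT58A tumours (3.29 ± 0.71 SE, edgeR adjusted p = 0.00375) and 8.34-fold in EV tumours (3.06 ± 0.70 SE, edgeR adjusted p = 0.00608). Without control replicate 3 the folds were 21.9 in MycT58A and 18.7 in EV tumours (edgeR adjusted p = 0.000854 and 0.00114).

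Lef1 (chromosome 3, 131110471 to 131224356) and Tcf7 (chromosome 11, 52252371 to 52283014, the gene of TCF1) encode TCF/LEF factors that are themselves WNT targets and act with beta-catenin as activators. Lef1 stood at 146, 107 and 132 CPM in MycT58A tumours, at 303, 97.6 and 166 CPM in EV tumours and at 3.96, 4.83 and 5.13 CPM in controls. Tcf7 stood at 318, 282 and 251 CPM in MycT58A tumours, at 282, 97.8 and 306 CPM in EV tumours and at 2.41, 2.53 and 2.05 CPM in controls. Both were low in cerebellum and high in each tumour, with EV replicate 2 the lowest tumour library for either gene. Lef1 rose 27.6-fold in MycT58A and 40.6-fold in EV tumours (edgeR adjusted p = 5.84e-05 and 4.86e-05). Tcf7 rose 121-fold in MycT58A and 97.9-fold in EV tumours (edgeR adjusted p = 2.59e-05 and 2.91e-05). Only 1.09% of all genes tested had a larger log2 fold change than Tcf7 in MycT58A tumours, and 1.36% in EV tumours.

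Tcf7l1 (chromosome 6, 72626378 to 72789254, the gene of TCF3) is known mainly as a repressor that holds WNT targets off, and Tcf7l2 (chromosome 19, 55741820 to 55933654, the gene of TCF4) can act in either direction and is known in brain from thalamus and the oligodendrocyte lineage. Tcf7l1 stood at 24.5, 26.3 and 24.3 CPM in MycT58A tumours, at 35.3, 29.4 and 16.8 CPM in EV tumours and at 7.44, 7.93 and 9.52 CPM in controls. Tcf7l2 stood at 18.8, 14.4 and 22.8 CPM in MycT58A tumours, at 27.9, 16.9 and 8.79 CPM in EV tumours and at 3.06, 3.99 and 5.74 CPM in controls. Their fitted rises were smaller than those of Lef1 and Tcf7. Tcf7l1 rose 3.02-fold in MycT58A and 3.28-fold in EV tumours (edgeR adjusted p = 0.0016 and 0.00137), and Tcf7l2 rose 4.37-fold in MycT58A and 4.196-fold in EV tumours (edgeR adjusted p = 0.00353 and 0.0048). The upper ends of their 95% intervals, 4.77 and 8.95 in MycT58A and 5.20 and 8.57 in EV tumours, lay below the lower ends for Lef1 (14.0 in MycT58A and 20.3 in EV) and Tcf7 (56.3 in MycT58A and 45.9 in EV).

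**Figure D2:**
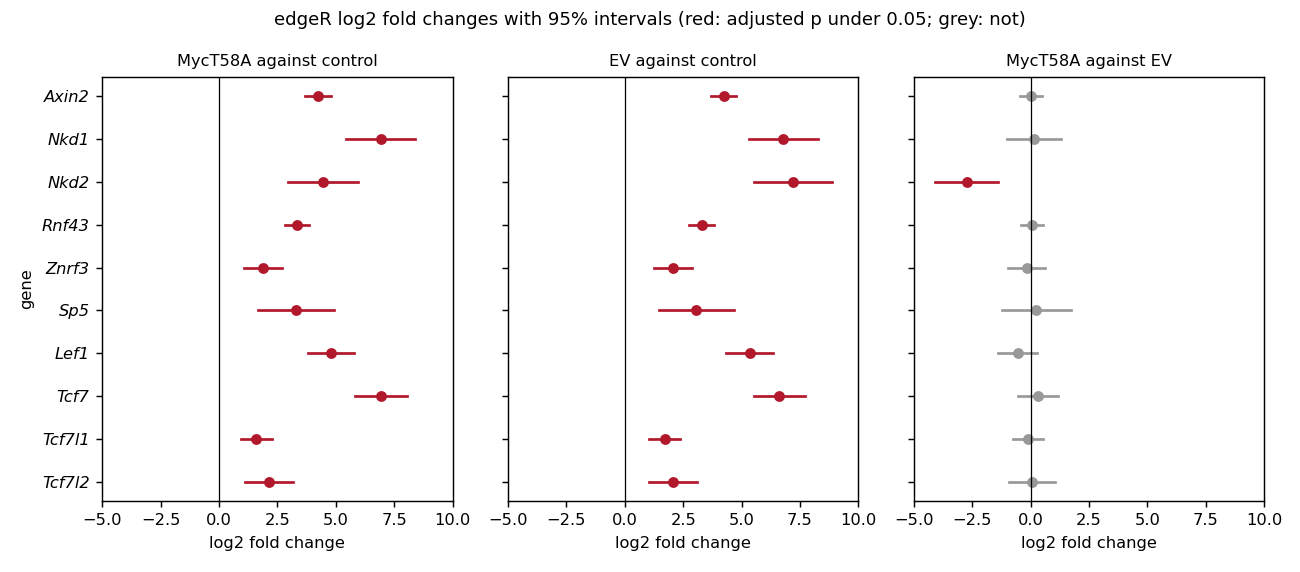
Fitted log2 fold change of each gene (points) with its 95% interval (lines) in the 3 comparisons, red where adjusted p is under 0.05. Against control all 10 genes lie right of 0 in both tumour groups, and between the tumour groups Nkd2 alone is called, at -2.74.

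The unequal rises went with another make-up of the TCF/LEF transcripts, read here as each gene's share of the 4 genes' summed CPM per kb of exon. Lef1 and Tcf7 together made up 94.3%, 93.5% and 92.6% in MycT58A tumours, 92.1%, 83.7% and 96.2% in EV tumours and 37.9%, 37.9% and 30.7% in controls. Tcf7l1 alone held 4.27 to 5.24% in MycT58A tumours, 3.05 to 13.0% in EV tumours and 50.7 to 54.6% in controls. Tcf7 alone held 80.0 to 84.0% in MycT58A tumours, 64.5 to 82.8% in EV tumours and 17.6 to 25.4% in controls. The make-up of tumours and controls did not overlap for Tcf7, Tcf7l1 or Tcf7l2, while that of Lef1 (9.49 to 12.6% in MycT58A, 13.4 to 22.3% in EV, 12.5 to 13.8% in control) overlapped. Divided by the longest coding transcript instead, Tcf7 held 66.1 to 72.6% in MycT58A tumours, 48.3 to 69.0% in EV tumours and 11.9 to 18.1% in controls, and Lef1 19.5 to 24.7% in MycT58A tumours, 26.6 to 39.4% in EV tumours and 21.1 to 22.8% in controls. The summed level of the 4 genes was 119 to 146 CPM per kb in MycT58A tumours, 57.8, 141 and 154 in EV tumours and 3.61 to 4.45 in controls. These shares are a description of transcripts, and protein was not measured.

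**Figure D3:**
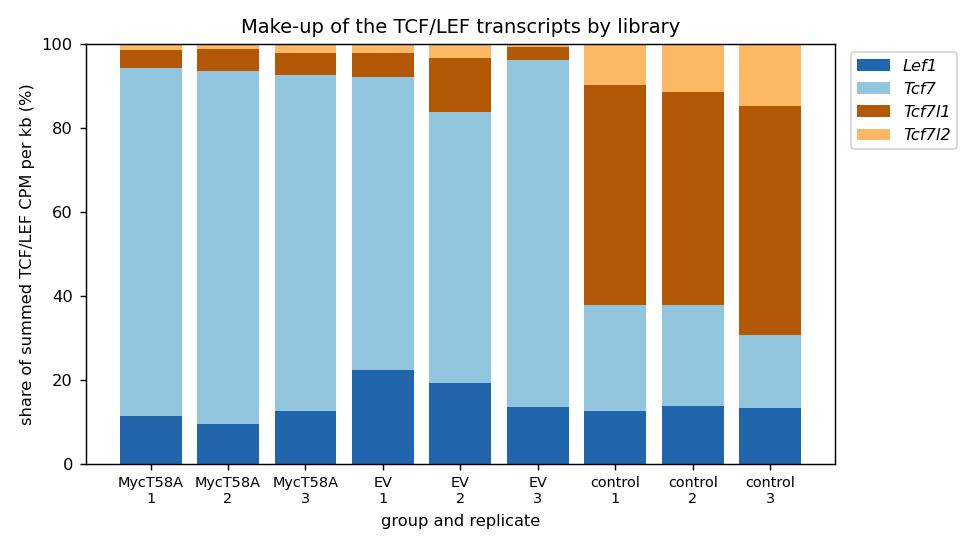
Share of each TCF/LEF gene in the summed CPM per kb of exon of the 4 genes, in percent, for each library. Tcf7 fills 80.0 to 84.0% of the bars in MycT58A and 64.5 to 82.8% in EV tumours, against 17.6 to 25.4% in controls, where Tcf7l1 fills 50.7 to 54.6%.

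The order of the 10 genes by CPM per kb of exon also differed between tumour and cerebellum. In MycT58A tumours it ran Nkd1, Tcf7, Sp5, Axin2, Rnf43, Lef1, Znrf3, Tcf7l1, Nkd2 and Tcf7l2, with overlapping ranges between Rnf43 and Lef1, between Znrf3 and Tcf7l1 and between Tcf7l1 and Nkd2. In EV tumours it ran Nkd1, Tcf7, Sp5, Nkd2, Axin2, Lef1, Rnf43, Znrf3, Tcf7l1 and Tcf7l2, and the neighbours from Tcf7 to Axin2 overlapped each in turn, as did Lef1 with Rnf43 and Znrf3 with Tcf7l1. In controls it ran Sp5, Nkd1, Tcf7l1, Axin2, Znrf3, Rnf43, Tcf7, Lef1, Tcf7l2 and Nkd2, with overlap between Sp5 and Nkd1, among the run from Tcf7l1 to Rnf43, and between Lef1 and Tcf7l2. On the longest coding transcript Lef1 moved up to the fifth place in MycT58A tumours (36.8 ± 5.72 CPM per kb) and to the fourth in EV tumours (54.2 ± 29.97 CPM per kb; SD, n = 3).

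What MycT58A adds to a tumour in which beta-catenin is already stabilised is the question of the comparison between tumour groups. Total Myc RNA was not called different between them, at 2.19-fold higher in MycT58A tumours (edgeR adjusted p = 0.592). Its 95% interval was 0.25- to 18.9-fold, and the libraries of the 2 groups overlapped. Of the 10 genes 1 fell in MycT58A tumours, Nkd2, and 0 rose by edgeR, limma-voom or DESeq2. Among all genes tested 5.02% fell and 3.28% rose, 8.3% in all. Nkd2 was 6.70-fold lower in MycT58A tumours (27.6 ± 9.32 CPM) than in EV tumours (185 ± 140.0 CPM; SD, n = 3), with a log2 fold change of -2.74 ± 0.59 SE and an edgeR adjusted p of 0.0316. It was also the gene among the 10 whose MycT58A and EV libraries did not overlap, where 13.6% of all genes had every MycT58A library below every EV library and 18.2% every one above. Nkd2 stayed lower under all 17 alternatives, by 3.87- to 8.79-fold, and passed under 10 of them; over the 17, run with edgeR, DESeq2 and limma-voom, the adjusted p lay between 6.53e-05 and 0.133. The call ended when edgeR was fitted to the 6 tumour libraries alone (adjusted p = 0.0922), on leaving out any 1 control library (edgeR adjusted p = 0.0553 to 0.0641) and on leaving out any 1 MycT58A library (edgeR adjusted p = 0.0931 to 0.133). It held without EV replicate 3 (edgeR adjusted p = 0.0181), and without EV replicate 1 the difference was 3.87-fold (edgeR adjusted p = 0.0377).

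For the other 9 genes the tumour groups overlapped, and all 9 had an edgeR adjusted p of 0.321 or more, with 0 at an unadjusted p under 0.05. The fitted 95% intervals below rest on 1 spread for all 3 groups, so the control libraries also enter them. Over all genes tested the median SD of log2 CPM was 0.64 in EV, 0.20 in MycT58A and 0.17 in control libraries. The intervals can thus be too narrow for this comparison, and none were computed from the tumour libraries alone. The 95% interval of MycT58A over EV was 0.73- to 1.40-fold for Axin2 (210.6 ± 21.2 CPM in MycT58A and 208.6 ± 9.43 CPM in EV tumours; SD, n = 3) and 0.75- to 1.46-fold for Rnf43 (100.4 ± 3.74 CPM in MycT58A and 96.3 ± 21.4 CPM in EV tumours). It was 0.59- to 1.44-fold for Tcf7l1 and 0.51- to 1.53-fold for Znrf3. The other intervals were wider, 0.38- to 1.21-fold for Lef1, 0.69- to 2.23-fold for Tcf7, 0.53- to 2.06-fold for Tcf7l2, 0.50- to 2.44-fold for Nkd1 and 0.42- to 3.27-fold for Sp5. Without EV replicate 2 Nkd1 passed, at 2.09-fold higher in MycT58A tumours (edgeR adjusted p = 0.0288). Its log2 fold change was 0.14 ± 0.50 SE with all libraries and changed sign under 3 of the 17 alternatives.

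The 2 Naked cuticle genes thus had different balances. Per kb of exon Nkd1 stood 76.4-, 53.9- and 76.6-fold above Nkd2 in the MycT58A libraries, 1.99-, 46.2- and 7.41-fold above it in the EV libraries and 8.92-, 9.84- and 24.2-fold above it in controls. EV replicate 2, with the highest Nkd1 and the lowest Nkd2 of its group, came closest to the MycT58A libraries in this ratio. It was also the EV library with the least Myc.

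The 10 genes differed in how evenly the tumours expressed them, measured as the SD of log2 CPM over the 6 tumour libraries. Axin2 had an SD of 0.10, and its highest tumour library was 1.22-fold above its lowest. Of all genes tested 0.521% had a smaller SD, and the median over all genes was 0.62. Genes were not matched for level in these shares, and the part of read number in the SD was not tested. Rnf43 followed at 0.20 (5.06% of genes smaller) and Tcf7l1 at 0.35, while Sp5, Znrf3, Tcf7l2, Lef1 and Tcf7 lay between 0.42 and 0.64, with 29.3 to 52.5% of genes smaller. Nkd1 stood at 0.78, and Nkd2 at 1.58, above 90.6% of genes, with a 17.1-fold range. Within EV tumours alone the SD of Axin2 was 0.07, and 1.25% of genes had a smaller one, against 1.15 for both Nkd1 and Nkd2. The SD was larger in EV than in MycT58A tumours for 9 of the 10, Axin2 being the other, and for 86.1% of all genes tested.

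**Figure D4:**
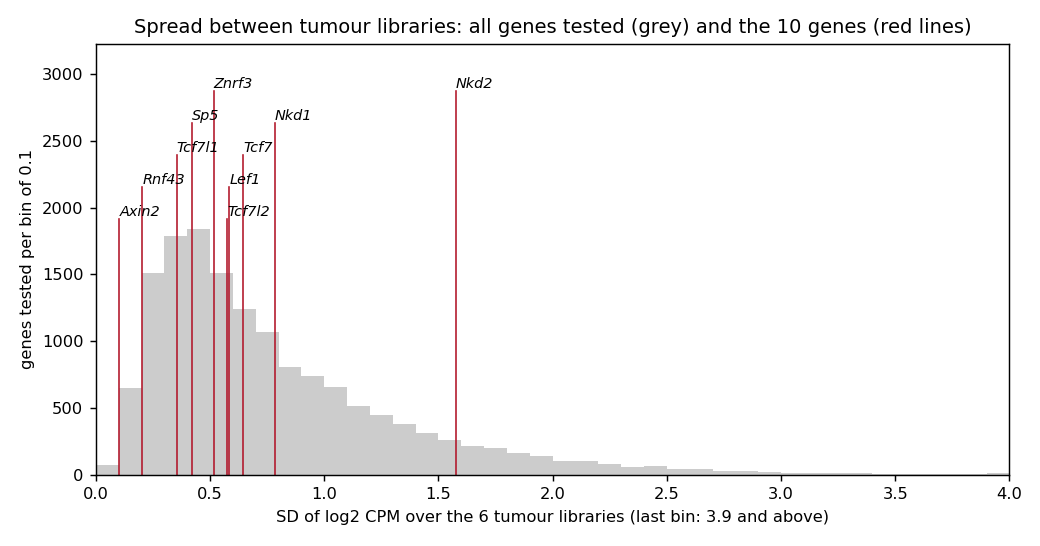
Histogram of the SD of log2 CPM over the 6 tumour libraries for all 15171 genes tested (grey, bins of 0.1), with the 10 genes as red lines. Axin2 at 0.10 and Rnf43 at 0.20 lie at the low end, and Nkd2 at 1.58 lies in the upper tail.

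The EV tumours were not ordered alike by the 10 genes. EV replicate 1 was the highest of its group for Axin2, Nkd2, Rnf43, Lef1, Tcf7l1 and Tcf7l2, and the lowest for Nkd1 and Znrf3. EV replicate 2 was the highest for Nkd1 and Sp5 and the lowest for Nkd2, Rnf43, Lef1 and Tcf7. EV replicate 3 was the highest for Znrf3 and Tcf7 and the lowest for Axin2, Sp5, Tcf7l1 and Tcf7l2. With 1 library each, no EV tumour can be said to have more or less WNT output than another from these orders.

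Marker lists of other cell types moved with the same comparisons, and their part in the levels of the 10 genes was not tested. Of the 8 granule neuron and the 8 Purkinje cell markers all fell in both tumour groups by edgeR. Of the 8 markers of astrocytes and Bergmann glia 7 fell in each group. Lef1 and Tcf7 are also factors of T cells: the 12 T and NK cell markers summed to 1.15 to 1.38 CPM in MycT58A tumours, 1.37, 9.13 and 2.89 CPM in EV tumours and 0.93 to 1.96 CPM in controls, with Cd3e at 0 in MycT58A tumours and controls. Of the 12 oligodendrocyte lineage markers, a lineage that uses Tcf7l2, 11 fell in MycT58A tumours and 10 fell and 1 rose in EV tumours. Their sum was 742, 101 and 119 CPM in MycT58A tumours, 292, 556 and 145 CPM in EV tumours and 3019 to 5467 CPM in controls.

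Of the 7 thalamus markers 2 rose and 4 fell in MycT58A tumours and 2 rose and 3 fell in EV tumours by edgeR. Lhx9 alone stood at 229 to 254 CPM in MycT58A tumours, 272 to 531 CPM in EV tumours and 0.56 to 0.62 CPM in controls, while Calb2 stood at 2.94 to 4.53 CPM in MycT58A tumours, 0.17 to 4.37 CPM in EV tumours and 113 to 433 CPM in controls. The 10 endothelial markers summed to 72.4 to 122 CPM in MycT58A tumours, 75.2, 367 and 155 CPM in EV tumours and 239 to 261 CPM in controls, and 3 fell in MycT58A and 1 in EV tumours. Of 7 lower rhombic lip markers 4 were tested, and 3 fell in each tumour group. The sum of the 7 was 53.0 to 69.6 CPM in MycT58A tumours, 6.16, 66.3 and 7.43 CPM in EV tumours and 553 to 584 CPM in controls. In controls it rested mostly on Zic1 (445 to 482 CPM) and Pax6 (85.2 to 94.6 CPM), with Atoh1 and Wnt1 at 0. Whether these genes mark lower rhombic lip cells in the controls was not tested, so their fall cannot be read as a loss of such cells. Olig3 went the other way in MycT58A tumours, at 0.54, 1.21 and 0.38 CPM against 0, 0.04 and 0 CPM in controls. It stood at 0.03, 0.17 and 0 CPM in EV tumours.

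Members of other lists were called between the tumour groups, as Nkd2 was, but in both directions. Of all genes tested 5.02% were lower in MycT58A tumours and 3.28% higher. In each of the forebrain cortex, astrocyte and lower rhombic lip lists 1 marker was higher in MycT58A tumours, of 3, 8 and 4 tested. In each of the thalamus and oligodendrocyte lists 1 was lower, of 7 and 12 tested. The granule neuron, Purkinje cell, endothelial and T and NK cell lists had 0. Of the 10 microglia and macrophage markers 4 were lower in MycT58A tumours, with sums of 65.4 to 143 CPM in MycT58A tumours, 380 to 554 CPM in EV tumours and 192 to 233 CPM in controls. In EV replicate 3 a single gene of that list, Tmem119, gave 338 of 481 CPM. Of the 6 epithelial markers 2 were lower in MycT58A tumours, with sums of 43.1 to 61.5 CPM in MycT58A tumours, 17.5, 24.9 and 260.1 CPM in EV tumours and 8.99 to 20.4 CPM in controls. The MycT58A sums rest mostly on Cdh1, at 45.1, 41.6 and 57.9 CPM. Cdh1 went the other way without being called, at 0.21, 4.37 and 22.7 CPM in EV tumours. Krt5 stood at 14.2, 1.49 and 129 CPM in EV tumours. Of the 8 mural cell and fibroblast markers 1 was lower in MycT58A tumours. Their sum, 1396 to 1736 CPM in MycT58A tumours, 2555, 11729 and 8249 CPM in EV tumours and 267 to 342 CPM in controls, rests on a few genes that differ between EV libraries: Col1a1 stood at 11.1, 3103 and 6006 CPM and Dcn at 1088, 7020.4 and 76.5 CPM in EV replicates 1 to 3.

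Other genes of the pathway were read from 5 lists, beside which 62.2% of all genes tested were called in MycT58A tumours and 57% in EV tumours. Ctnnb1, the gene of beta-catenin, stood at 1036 ± 45.2 CPM in MycT58A, 1051 ± 34.8 CPM in EV and 765 ± 55.4 CPM in control libraries (SD, n = 3), a rise of 1.35-fold in MycT58A and 1.37-fold in EV tumours (edgeR adjusted p = 0.0465 and 0.0426), each passing under 8 of 17 alternatives. Of 24 TCF/LEF cofactors 8 rose and 4 fell in MycT58A tumours and 9 rose and 1 fell in EV tumours, with median log2 fold changes of 0.22 in MycT58A and 0.40 in EV tumours. The Groucho corepressor gene Tle1 rose 5.20-fold in MycT58A and 3.92-fold in EV tumours (edgeR adjusted p = 0.000485 and 0.00142), and its relative Tle6 6.52-fold in MycT58A and 9.28-fold in EV tumours (edgeR adjusted p = 0.00036 and 0.000213). Tle2, another Groucho gene, fell 8.39-fold in MycT58A tumours (1.499 ± 0.43 CPM against 12.6 ± 3.21 CPM in controls; SD, n = 3; edgeR adjusted p = 0.000973). The kinase gene Hipk2 fell 4.29-fold in EV tumours (edgeR adjusted p = 0.000339). Both Tle2 and Hipk2 also lay below controls in the other tumour group. Tle2 stood at 2.55 to 8.54 CPM in EV tumours, against 10.2 to 16.3 CPM in controls. Hipk2 stood at 19.3 to 25.9 CPM in MycT58A tumours, against 48.1 to 62.2 CPM in controls.

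Of 20 destruction complex and Dishevelled genes 7 rose and 6 fell in MycT58A tumours and 5 rose and 7 fell in EV tumours, with medians of -0.09 in MycT58A and 0.12 in EV tumours, shares called near those of all genes. Dvl2, one of the Dishevelled genes, rose 6.79-fold in MycT58A and 4.16-fold in EV tumours (edgeR adjusted p = 3.04e-05 and 9.23e-05), and the kinase gene Csnk1e 2.47-fold in MycT58A and 2.58-fold in EV tumours (edgeR adjusted p = 0.000232 and 0.00023). Btrc, the ubiquitin ligase subunit that marks beta-catenin for degradation, fell 4.13-fold in MycT58A and 3.94-fold in EV tumours (edgeR adjusted p = 0.000141 and 2e-04).

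The receptor list of 21 genes holds the Frizzled and LRP receptors, the R-spondins, the LGRs, Tmem9 and Usp42. Of these 9 rose and 2 fell in MycT58A tumours and 9 rose and 1 fell in EV tumours. The medians were 0.95 in MycT58A and 0.85 in EV tumours. The receptor gene Fzd10 rose 143-fold in MycT58A tumours (260.1 ± 23.6 CPM) and 129.7-fold in EV tumours (236 ± 49.6 CPM) over controls (1.81 ± 0.43 CPM; SD, n = 3; edgeR adjusted p = 1.38e-05 and 1.19e-05). Lrp5, the coreceptor, rose 6.66-fold in MycT58A tumours (edgeR adjusted p = 6.66e-05), and Fzd2 rose 28.0-fold in EV tumours (edgeR adjusted p = 0.000104), or 43.4-fold without control replicate 2. Both also lay above controls in the other tumour group. Lrp5 stood at 50.0 to 95.7 CPM in EV tumours, against 17.7 to 20.3 CPM in controls. Fzd2 stood at 72.5 to 106 CPM in MycT58A tumours, against 1.80 to 5.10 CPM in controls. The R-spondin gene Rspo2 fell 5.08-fold in MycT58A (edgeR adjusted p = 0.0151) and 4.10-fold in EV tumours (edgeR adjusted p = 0.0297), against levels of 2.53 to 3.73 CPM in controls. The Rspo2 calls held under 14 of 17 alternatives in MycT58A and 11 in EV tumours, and without EV replicate 3 the EV fall was 7.85-fold.

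Of 23 other known beta-catenin targets 18 were tested, of which 11 rose and 2 fell in MycT58A tumours and 12 rose and 1 fell in EV tumours. Their median log2 fold changes were 3.18 in MycT58A and 3.42 in EV tumours. Notum, an enzyme that inactivates WNT ligands, rose 139.8-fold in MycT58A tumours (216 ± 66.3 CPM) and 131-fold in EV tumours (203 ± 24.0 CPM; SD, n = 3; edgeR adjusted p = 1.52e-05 and 1.28e-05). The secreted inhibitor gene Wif1 rose 205-fold in MycT58A tumours (edgeR adjusted p = 2.28e-05), and the membrane inhibitor gene Apcdd1 rose 47.4-fold in EV tumours (edgeR adjusted p = 1.89e-05). Both were high in the other tumour group too. Wif1 stood at 1316 to 3080 CPM in EV tumours, against 6.42 to 12.9 CPM in controls. Apcdd1 stood at 430 to 713 CPM in MycT58A tumours, against 21.6 to 29.2 CPM in controls. Mitf fell 3.42-fold in MycT58A tumours (edgeR adjusted p = 0.00837). Id2 fell 3.01-fold in EV tumours (edgeR adjusted p = 0.0356), under 9 of 17 alternatives, or 5.83-fold without EV replicate 3. In MycT58A tumours Id2 stood at 44.9 to 84.9 CPM, also below controls at 147 to 162 CPM. In EV tumours Mitf stood at 3.31 to 9.01 CPM, overlapping controls at 4.99 to 8.46 CPM.

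Among 8 SP-family relatives of Sp5 6 were tested, of which 4 rose and 1 fell in MycT58A tumours and 3 rose and 1 fell in EV tumours. Sp1 rose 3.97-fold in MycT58A and 3.56-fold in EV tumours (edgeR adjusted p = 0.00129 and 0.00233), Sp3 rose 2.15-fold in MycT58A tumours (edgeR adjusted p = 0.000849), and Sp4 fell 2.59-fold in MycT58A and 2.96-fold in EV tumours (edgeR adjusted p = 0.00204 and 0.00132). Sp7, a factor of bone formation, stood at 5.99, 6.80 and 102 CPM in EV tumours and 0.78, 0.27 and 0.28 CPM in controls. Its rise in EV tumours was 84.7-fold (edgeR adjusted p = 0.00333), or 14.4-fold without EV replicate 3 and 143-fold without control replicate 1. Sp7 also lay above controls in MycT58A tumours, at 4.73 to 10.01 CPM. Sp3 stood at 58.3 to 79.4 CPM in EV tumours, overlapping controls at 54.1 to 64.5 CPM.

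Between the tumour groups, where 8.3% of all genes were called, the 20 destruction complex and Dishevelled genes and the 21 genes of the receptor list had 0. Of each list 3 were at an unadjusted edgeR p under 0.05. DESeq2 called 2 of each and limma-voom 1 of each, all higher in MycT58A tumours. Among the cofactors Tle2 (4.19-fold) and Tle4 (2.14-fold) were lower in MycT58A tumours (edgeR adjusted p = 0.041 and 0.0433). Among the other targets Ccnd1, the gene of cyclin D1, was 2.77-fold lower, at 181 ± 24.4 CPM in MycT58A and 501 ± 211 CPM in EV tumours (SD, n = 3; edgeR adjusted p = 0.0261). Wisp1, a matricellular gene, was 13.5-fold lower (edgeR adjusted p = 0.0306), or 8.58-fold without EV replicate 3, and the adhesion receptor gene Cd44 was 1.99-fold higher (edgeR adjusted p = 0.0442). Sp3 was 1.88-fold higher in MycT58A tumours (edgeR adjusted p = 0.0243). These 6 passed under 3 to 10 of 17 alternatives each, with no change of sign.

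The genes most like Axin2 over the 9 libraries, by Pearson r of log2 CPM, were Fzd10 (0.997), Stt3a (0.996) and Zfp217 (0.996), and those most like Lef1 were Tgif1, Gnai3 and Hs3st3b1 (0.995 to 0.996). For Sp5 they were Stc2, Cdkn2a and Tec (0.968 to 0.981). Such values rest largely on the gap between tumour and cerebellum, which all libraries of a group share: 11.4% of all genes had an r of at least 0.9 with Axin2, 11.5% with Lef1 and 2.92% with Sp5. Over the 6 tumour libraries alone the 3 genes named for Axin2 had an r of -0.09, -0.34 and 0.77 with it. The 3 named for Lef1 had 0.90, 0.94 and 0.90 with Lef1, and the 3 named for Sp5 had 0.63, 0.70 and 0.71 with Sp5. All were picked on libraries that include these 6 tumours, so such values are partly built in. The share of all genes reaching them over the 6 was not counted.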

How the data were processed

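Bulk RNA of 9 mouse libraries was sequenced, and the whole-number counts per gene symbol that the authors deposited were used as given. The submitters' processing notes name bcl2fastq, TopHat, edgeR and the mm10 build. Read counter, annotation and strand setting were not given in the sources used here, and without strand reads of overlapping or antisense genes cannot be told apart. In GENCODE vM21 (mm10), used for positions and exon lengths, other genes overlap 13.7% of the exon bases of Lef1, 4.56% of Tcf7l1 and 3.8% of Axin2.

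Genes were kept with filterByExpr by group (minimum count 10, minimum total 15), which left 15171. Counts were scaled by TMM and fitted with 1 mean per group over all 9 libraries with edgeR 4.0.16 in R 4.3.3 (glmQLFit, glmQLFTest); 1 spread serves all groups, so each p also rests on the group not compared. P-values were adjusted by Benjamini-Hochberg over all genes tested, at a threshold of 0.05. The SE is the log2 fold change over the root of F, and 95% intervals use its t distribution and are not adjusted for the number of genes. Log2 CPM used a prior count of 2. CPM per kb divides CPM by the joined exon length.

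The 10 genes, the pathway lists and the marker lists were chosen with earlier results of these data known; of 198 list genes 198 matched, 2 through a synonym. The text names the 10 genes, Ctnnb1, Myc, the called list members of smallest p (up to 3 a list and comparison, at most 2 in 1 direction where both occur) and the 3 genes most correlated with each of Axin2, Lef1, Sp5 and Tcf7l2, of which those for Tcf7l2 are not reported here. Replicate numbers follow sample order and pair nothing. Other settings tried were RLE size factors, no composition scaling, no filter on low counts, at least 1 CPM throughout a group, a fit of the compared groups alone, DESeq2 1.42.0, limma-voom (limma 3.58.1) without and with weights per group, and leaving out each library. Promoter sequences are RefSeq's for GRCm38.p6, and figures were drawn with matplotlib 3.10.9.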

Additional observations from a re-analysis of the deposited data

How the results depend on the processing

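Against control all 10 genes stayed called, in the same direction, under all 17 alternatives in both tumour groups. Of 510 values of the 10 genes under an alternative in the 3 comparisons, 502 kept their side of the threshold, 7 lost it (all Nkd2 in MycT58A against EV tumours) and 1 gained it (Nkd1 in the same comparison). In that comparison the number of the 10 genes called was 1; it was 0 with only the 2 groups in the fit, and 0 to 2 with 1 library left out. The number of all genes called was 1259, against 34 with only the 2 groups in the fit, 3446 by DESeq2, 449 by limma-voom with weights per group and 36 to 3977 with 1 library left out; the cause was not tested. Leaving out a MycT58A library gave 36 to 70 calls, a control library 311 to 363 and an EV library 1924 to 3977. Against control the counts of all genes stayed within 1.5 times. Library size alone moved the median of all genes in MycT58A against EV tumours to -0.17 on the log2 scale, beside -0.04 with TMM, and the split of calls to 301 higher and 938 lower, beside 498 and 761; by limma-voom without weights 884 were higher and 629 lower. No paired analysis was possible because the labels number the libraries TP1 to TP9 and share no replicate number between groups. The lowest count of the 10 genes was 14 (Nkd2 in control replicate 3, with 35 and 38 in the other controls), so the fold of Nkd2 over control rests on few reads, and the effect of depth was not tested.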
